A study of Ovis aries with 14 samples.

Results

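Of 27054 genes counted in 14 lamb lungs (Ovis aries), 57 were high in some animals and far lower in others of the same group. The level of a gene in a library is given in CPM, which is its count divided by the total count of that library and multiplied by 1000000. A gene was taken when its highest CPM was over 3 and when the 14 sorted values of log2(CPM + 0.1) held a gap of more than 3 between neighbours, which is more than 8-fold on that scale. The largest gap also had to leave libraries of at least 1 group on both sides. Libraries above the largest gap are called on and those below it off, so off means low and not absent. A gap of this size was present in 61 of the 13921 genes with a highest CPM over 3. One of them was left out because its gap split no group, and 3 because the gap put all 3 IMV libraries on one side and all 3 NRS libraries on the other. The values of all 14 libraries chose the genes, so the levels below are descriptions and carry no test.

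The tissue was the right lower lobe of the lung, with 1 library per lamb, 14 lambs with identifiers of their own and 5 groups. Preterm lambs had 3 days of support, either by invasive mechanical ventilation through a tube (IMV, n = 3) or by noninvasive respiratory support (NRS, n = 3), which was given by mask, and both groups carry the age label gd134. Unsupported lungs were from fetuses labelled gd127, gd128 and gd131 (fetal start, n = 3), from fetuses labelled gd135, gd134 and gd136 (fetal end, n = 3) and from term lambs labelled gd150 (n = 2, replicates 2 and 3). These 3 groups are labelled as having no treatment. The identifiers of fetal end replicates 1 and 2 carry each other's labelled day. For breed, sex, litter and parentage, nothing is given in the sources used here. Library totals ran from 23267448 to 31586235 counts, and between 19062 and 19836 genes had a count in each library.

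A bulk lung library sums the RNA of airway and alveolar epithelium, vessel, connective tissue and blood cells. A low level can therefore mean fewer cells of a type or less RNA per cell, and these cannot be told apart here. Genes that are on in some individuals and off in others are known from outbred animals, which differ in sex and inherited sequence, and from pieces of an organ that differ in the cells they hold. The files give Ensembl identifiers without gene names, and none of them matched the reference table used here. A part of any of these in the results was not tested, and marker genes of lung and of other tissues could not be looked up. Genes are given by identifier, and CPM are not corrected for gene length.

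The 57 genes fell into 30 patterns of on and off libraries, and 23 of these patterns were held by a single gene. The most common kind was a gene on in 1 library only, with 27 of 57 genes. A further 6 genes were on in 2 or 3 libraries, 11 were on in 4 to 10, 7 were off in 2 or 3 and 6 were off in 1. The gap had a median of 3.84 and reached 9.53 on the log2 scale, where the median largest gap over all 13921 genes with a highest CPM over 3 was 0.23. In 14 of the 57 genes every off library had at most 3 counts, and in 3 of these every off library had 0. The highest off count of any gene was 366, in ENSOARG00000010231. On the high side, 38 genes exceeded 10 CPM and 7 exceeded 100 CPM in at least 1 library.

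**Figure D1:**
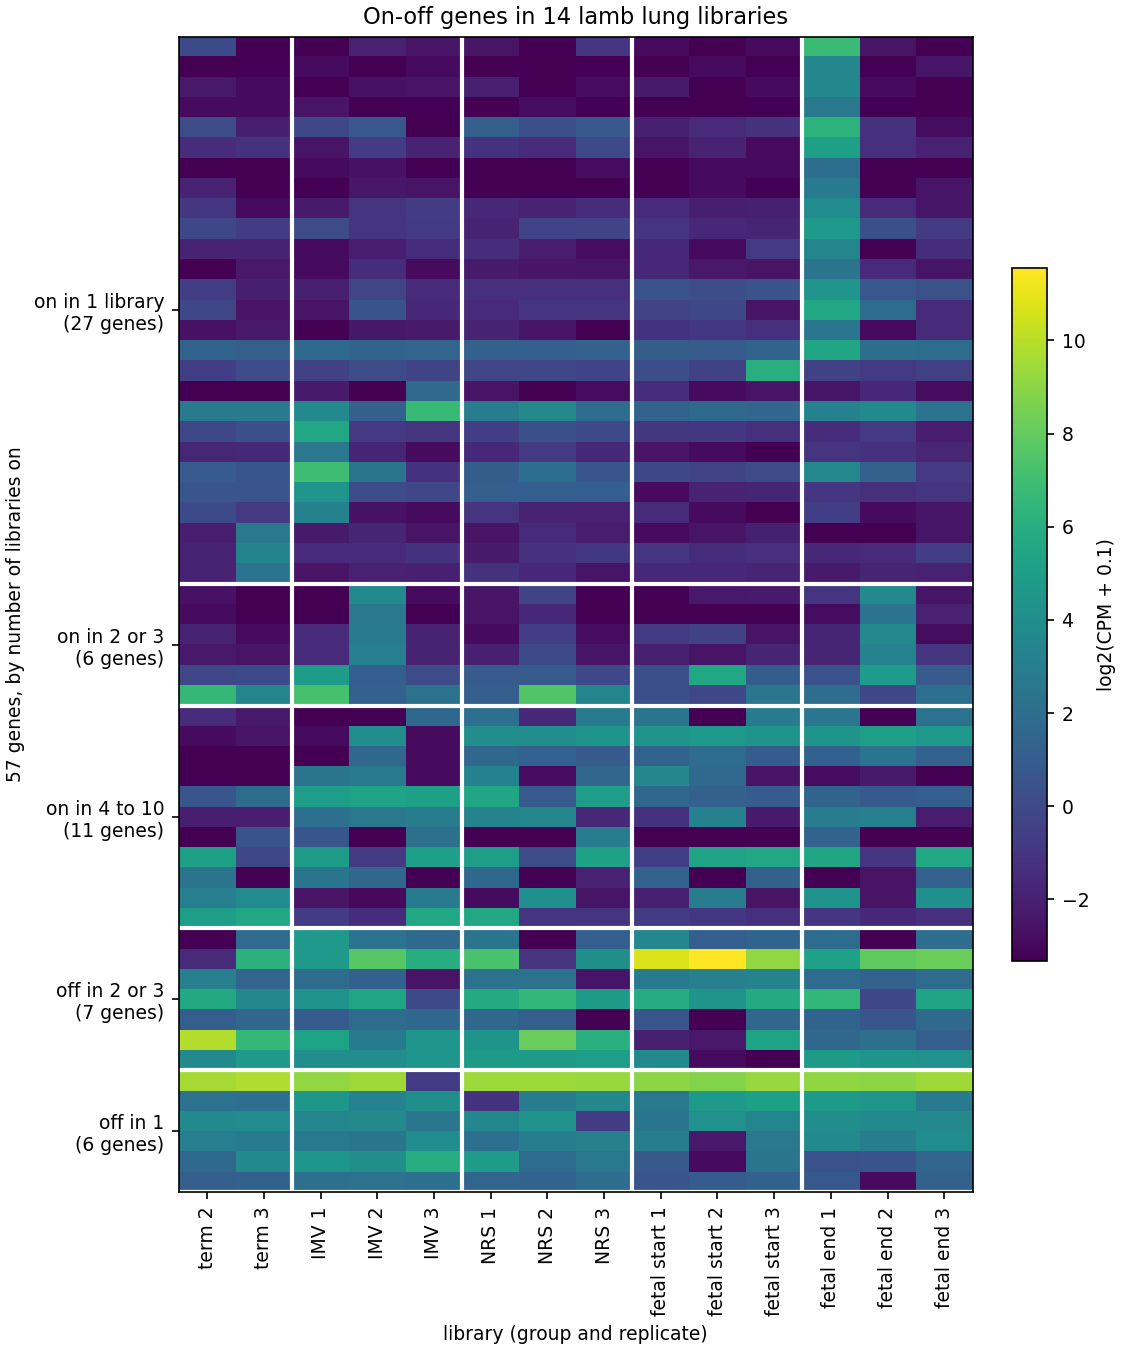
Level of the 57 on-off genes (rows, grouped by the number of libraries on) in each of the 14 libraries (columns), as log2(CPM + 0.1) from dark (low) to yellow (high). The block of 16 genes at the top is on in fetal end replicate 1 only, while the 11 genes on in 4 to 10 libraries change from library to library inside the groups.

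The split ran inside every group. It divided the 3 fetal end libraries for 30 genes, the IMV libraries for 25, the NRS libraries for 16, the fetal start libraries for 13 and the 2 term libraries for 9. Most genes (38) were split in 1 group, and 2 genes were split in all 5. The rule took only genes that split a group, so these counts describe what it chose. Under it, 5 genes were on in every library of at least 1 group and off in every library of another. The ending of the animal identifier (17, 18 or 19) separated on from off libraries for 0 of the 57 genes. It could not do so for a gene split inside term, NRS or fetal end, where all libraries of a group share an ending. Nor could it for a gene on or off in 1 library, so the 0 is no test of the identifier.

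Fetal end replicate 1 alone carried 16 of the 57 genes. Its total of 26215262 counts and its 19616 detected genes lay within the range of the other libraries. The 16 genes had 105 to 2907 counts each there, a median of 350.5, and their CPM summed to 439.9. In the other 13 libraries the same sum ran from 3.86 (term replicate 3) through a median of 5.78 to 11.8 (fetal end replicate 2). The sum in fetal end replicate 1 was 37.2 times the highest of the others.

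Of these 16 genes, the gap was widest for ENSOARG00000010441 and ENSOARG00000018477. ENSOARG00000010441 had 2907 counts in fetal end replicate 1, 2 and 0 in fetal end replicates 2 and 3, 27 and 0 at term, 0, 5 and 2 with IMV, 2, 0 and 10 with NRS and 1, 0 and 1 at fetal start. ENSOARG00000018477 had 305 counts there and at most 2 in any other library, with 9 of the other 13 at 0. All 16 genes were thus high together in 1 of 3 fetuses of the group. Among genes with a highest CPM over 3 and a smaller gap of 2 to 3, 36 stood out upwards in a single library. Of these, 15 did so in fetal end replicate 1, 10 in IMV replicate 3 and 2 in term replicate 2. With a gap of 1 to 3 the order was another one. There 236 genes stood out upwards in a single library, 70 of them in term replicate 2 and 41 in fetal end replicate 1. When the rule was applied without fetal end replicate 1, it gave 43 genes in place of 57, and the most common split was then another one, shared by 5 genes.

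**Figure D2:**
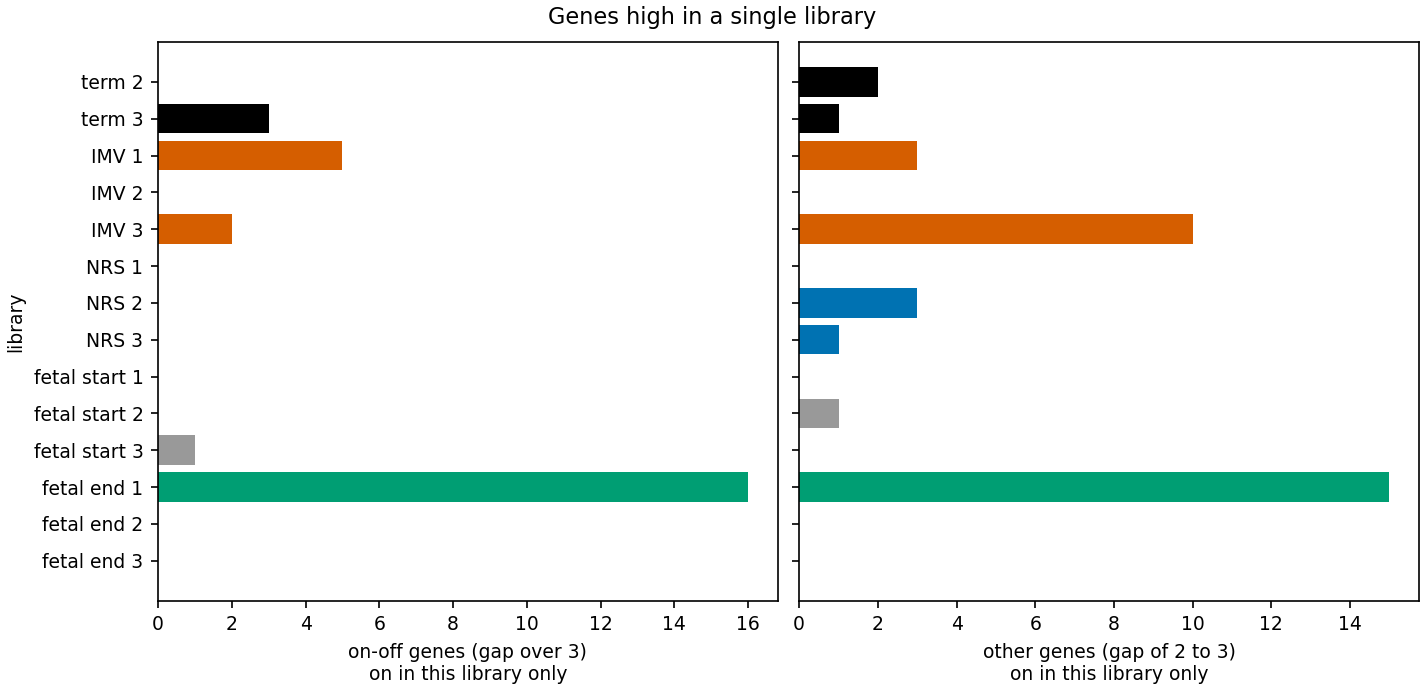
Number of genes on in 1 library only, by library: on-off genes with a gap over 3 on the left, other genes with a highest CPM over 3 and a gap of 2 to 3 on the right. Fetal end replicate 1 has 16 and 15 such genes, and IMV replicate 3 has 2 and 10.

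The other genes on in a single library belonged to IMV replicate 1 (5 genes), term replicate 3 (3 genes), IMV replicate 3 (2 genes) and fetal start replicate 3 (1 gene). The 5 genes of IMV replicate 1 summed to 209 CPM there and to 1.21 to 14.6 CPM in the other libraries, highest in fetal end replicate 1. ENSOARG00000014496 had 1346 counts in IMV replicate 1, 14 and 11 in the other IMV libraries and 3 to 33 in the rest. ENSOARG00000014592 had 162 counts there, against 6 and 1 in the other IMV libraries and 0 to 11 in the rest. So neither was high with IMV as a group.

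At term, ENSOARG00000005172 had 4 and 176 counts in replicates 2 and 3, and ENSOARG00000019583 had 5 and 300, where the 12 other libraries held 0 to 6 and 3 to 14. The single gene of fetal start replicate 3, ENSOARG00000016160, had 1808 counts there and 13 to 31 in all others. It was named after its values were seen.

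A set of 4 genes was on in IMV replicate 2 and fetal end replicate 2 and off in the other 12 libraries. The 2 lambs with the set on were both labelled gd134, though the identifier of fetal end replicate 2 carries the day labelled for fetal end replicate 1. They differed in group and in treatment. The CPM of the 4 genes summed to 35.1 and 41.1 in their libraries. The sum stood at 2.41 in NRS replicate 2 and at 0.105 to 0.816 in the other 11. ENSOARG00000011052 had 443 and 364 counts in the on libraries, 17 in NRS replicate 2 and at most 10 elsewhere. ENSOARG00000008251 stood at 6.02 and 5.03 CPM there, with 7 of the 12 off libraries at 0 counts and the highest, NRS replicate 2, at 5 counts. NRS replicate 2 was the highest off library for 3 of the 4 genes. A further 26 genes with a highest CPM over 3 had this split with a gap of 1 to 3.

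Both of the genes on in 3 libraries also crossed groups, and they are given here after their values were seen. ENSOARG00000004349 was on in IMV replicate 1, fetal start replicate 2 and fetal end replicate 2, at 29.5, 47.3 and 29.3 CPM, and at 0.781 to 2.09 CPM elsewhere. ENSOARG00000009963 was on in term replicate 2, IMV replicate 1 and NRS replicate 2, at 96.4, 153 and 181 CPM, and at 0.782 to 11.4 CPM elsewhere.

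**Figure D3:**
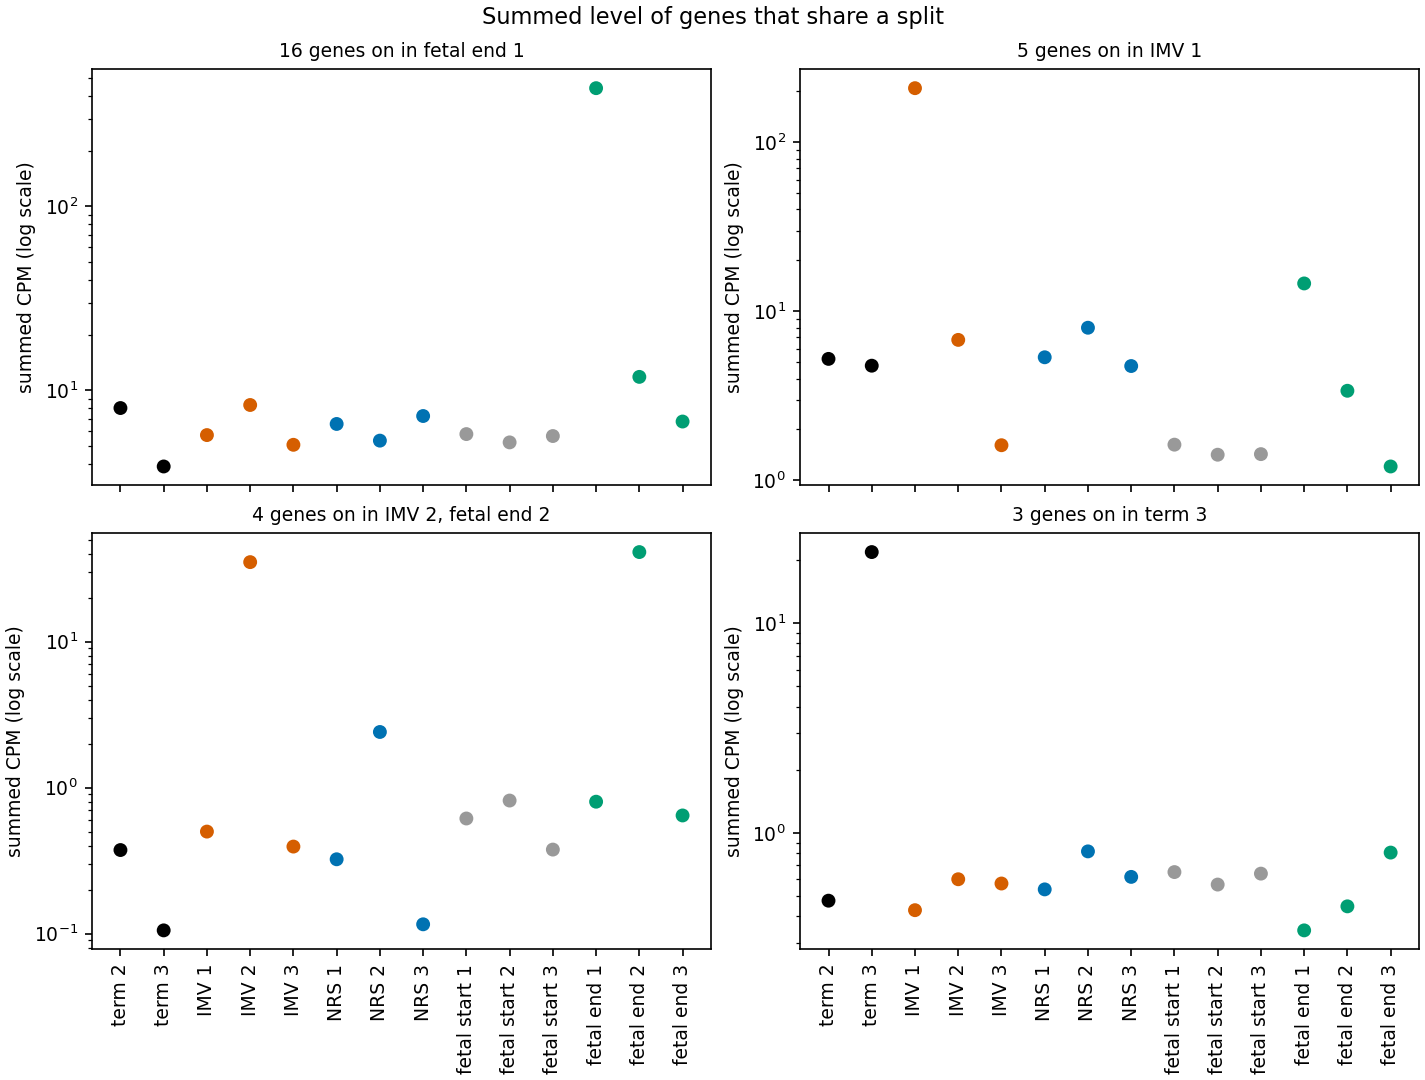
Summed CPM (log axis) of the 4 sets of at least 3 genes with the same on libraries, 1 point per library, coloured by group. The on libraries reach 439.9 CPM for the 16 genes of fetal end replicate 1, 209 CPM for the 5 of IMV replicate 1 and 35.1 and 41.1 CPM for the 4 of IMV replicate 2 and fetal end replicate 2.

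In the 11 genes on in 4 to 10 libraries, the highest on CPM was 1.38 to 5.39 times the lowest (median 2.40), and less than 3 times the lowest for 9 of 11 genes. Of these 11 genes, 7 were split in at least 3 groups and 9 had at most 15 counts in every off library. The genes of this class described next, apart from ENSOARG00000008077 and ENSOARG00000013899, were chosen after their values were seen.

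ENSOARG00000006781 was split in all 5 groups. It stood at 35.0 and 0.806 CPM at term, at 28.8, 0.475 and 33.2 with IMV, at 31.6, 0.989 and 36.6 with NRS, at 0.578, 37.7 and 45.8 at fetal start and at 43.7, 0.410 and 49.2 at fetal end. Exactly 1 library of each group was off. The 9 on libraries had a coefficient of variation of 18.1%, and the lowest of them was 29.2 times the highest off library.

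ENSOARG00000004877 was on in both term libraries (31.4 and 48.2 CPM), in IMV replicate 3 (46.2 CPM) and in NRS replicate 1 (47.4 CPM). The other IMV libraries had 0.536 and 0.285 CPM, the other NRS libraries 0.387 and 0.386 CPM and the 6 fetal libraries 0.223 to 0.506 CPM. The on state was thus seen in supported and term lambs and in 0 of 6 fetuses, yet in 1 of 3 lambs of each supported group. ENSOARG00000001169 took another course, on in both term libraries (8.05 and 14.7 CPM), IMV replicate 3 (7.07), NRS replicate 2 (17.3), fetal start replicate 2 (7.41) and fetal end replicates 1 and 3 (19.8 and 17.7), with 1 to 4 counts in each of the 7 off libraries.

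ENSOARG00000008077 and ENSOARG00000009526 had the same split, off in both term libraries and in IMV replicates 1 and 3. Counts of ENSOARG00000008077 were 1 and 2 at term, 1, 503 and 1 with IMV, 455, 356 and 530 with NRS, 579, 679 and 555 at fetal start and 549, 904 and 600 at fetal end. ENSOARG00000009526 had 0 counts in both term libraries, 0, 96 and 1 with IMV, 87, 57 and 46 with NRS, 72, 104 and 52 at fetal start and 2.33, 5.06 and 2.50 CPM at fetal end. Every NRS and fetal library was on for both genes, and the only IMV library on was replicate 2. A further 2 genes with a highest CPM over 3 had this split with a gap of 1 to 3.

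ENSOARG00000013899 was on in all 3 IMV libraries, at 32.5, 39.4 and 34.4 CPM, and in NRS replicates 1 and 3, at 44.3 and 32.1 CPM. NRS replicate 2 had 1.85 CPM, within the range of the 6 fetal libraries (1.79 to 3.00 CPM), and the term libraries had 1.49 and 3.72 CPM. Of the 6 supported lambs, 5 were on and 0 of the 8 unsupported ones.

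The other 4 genes on in 4 to 10 libraries, not counting ENSOARG00000015670 described below, also crossed groups. ENSOARG00000002980 was split in all 5 groups, at 5.09 and 0 CPM at term, 5.39, 2.91 and 0 with IMV, 3.12, 0 and 0.154 with NRS, 2.49, 0 and 2.33 at fetal start and 0, 0.0745 and 2.46 at fetal end. ENSOARG00000020972 had 0 counts in 9 libraries and 39, 42, 124, 191 and 65 counts in term replicate 3, IMV replicates 1 and 3, NRS replicate 3 and fetal end replicate 1. The 6 libraries with ENSOARG00000019479 on were IMV replicates 1 and 2, NRS replicates 1 and 3 and fetal start replicates 1 and 2, so that it was off throughout the term and fetal end groups, with 0 to 3 counts. ENSOARG00000002874 was on in all 3 IMV libraries, at 4.29, 5.86 and 7.53 CPM, off in both term libraries, at 0.136 and 0.140 CPM, and mixed in the other groups.

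**Figure D4:**
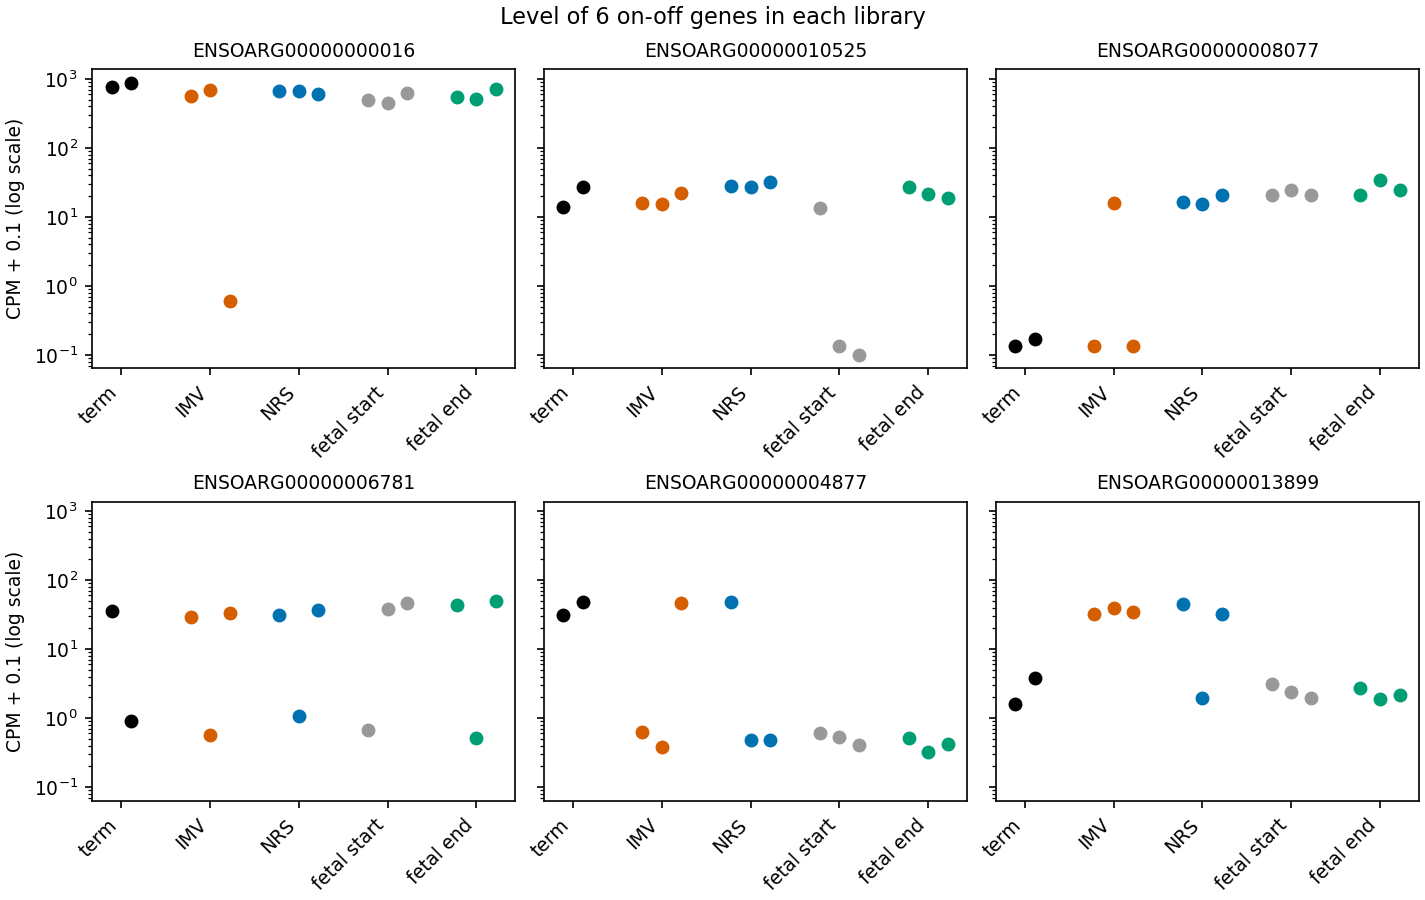
CPM + 0.1 (log axis) of 6 on-off genes in each of the 14 libraries, 1 point per library, by group, with replicates from left to right. ENSOARG00000006781 has 1 library off in each group, and ENSOARG00000000016 falls from at least 446 CPM in 13 libraries to 0.502 CPM in IMV replicate 3.

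The remaining 13 genes were the reverse case, on in most lambs and off in 1 to 3. The widest gap of all 57 genes belonged to ENSOARG00000000016. It had 12572 to 24997 counts in 13 libraries and 14 in IMV replicate 3, or 751 and 876 CPM at term, 558, 686 and 0.502 with IMV, 678, 671 and 614 with NRS, 501, 446 and 621 at fetal start and 543, 511 and 702 at fetal end. The lowest on library was 888 times the off library. Among the 13 on libraries the coefficient of variation was 18.7%, and both term libraries stood above all the others. The opposite split, on in IMV replicate 3 only, was that of 2 genes: ENSOARG00000010231 (106 CPM there and 2.31 to 13.1 CPM elsewhere) and ENSOARG00000009143 (3.37 CPM there and 0 to 0.289 CPM elsewhere). These made the only 2 pairs of opposite splits among the 57 genes.

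ENSOARG00000010525, named after its values were seen, was off in fetal start replicates 2 and 3, with 1 and 0 counts, and had 371 counts in fetal start replicate 1 and 412 to 821 in the other 11 libraries. The 2 genes with the highest CPM of the set varied widely among their on libraries as well. ENSOARG00000019174 had 7 counts in term replicate 2 and 9 in NRS replicate 2, and 437 to 85091 in the other 12 libraries, so that the highest on CPM was 179 times the lowest. Its 3 fetal start libraries, at 1652, 3018 and 576 CPM, were its 3 highest. ENSOARG00000002875, also named after its values were seen, was off in the same 2 libraries and in fetal end replicate 2, with 0 counts in all 3 and 55 to 725 counts elsewhere.

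ENSOARG00000012328 had 4 and 3 counts in fetal start replicates 1 and 2 and 1063 in fetal start replicate 3. It stood at 908 and 97.7 CPM at term, at 39.9, 6.74 and 22.1 with IMV, at 20.4, 283 and 68.3 with NRS and at 2.98, 4.43 and 2.18 at fetal end. The highest on library was 417 times the lowest. In this gene the levels spread over a range without a common on level.

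The other 8 genes off in 1 to 3 libraries were again described after their values were seen. ENSOARG00000001694 had 25 counts in IMV replicate 3 and 21 in fetal end replicate 2, and 345 to 2449 in the other 12 libraries. ENSOARG00000004529 had 0 counts in NRS replicate 3 and fetal start replicate 2 and 40 to 117 elsewhere, while ENSOARG00000002796 had 2 counts in IMV replicate 3 and in NRS replicate 3 and 67 to 261 elsewhere. Each of these was off in 1 library of 2 different groups. Fetal start replicate 2 was the only off library for ENSOARG00000002032 (3 counts, 117 to 426 elsewhere) and for ENSOARG00000019460 (1 count, 33 to 1686 elsewhere). NRS replicate 1 alone was off for ENSOARG00000004630, NRS replicate 3 alone for ENSOARG00000013250 and fetal end replicate 2 alone for ENSOARG00000017989. The off libraries had 10, 13 and 1 counts.

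At the edge of the rule, the narrowest gaps inside were those of ENSOARG00000010231 (3.01) and ENSOARG00000015670 (3.05). ENSOARG00000015670 was on in 7 libraries, at 2.98 to 7.15 CPM, and off in 7, at 0 to 0.272 CPM. Just outside were ENSOARG00000015725 (2.984), which was on in IMV replicate 2 and fetal end replicate 2 at 3.07 and 3.76 CPM, and ENSOARG00000010570 (2.982), which was on in fetal end replicate 1 at 7.82 CPM. The 3 genes left out for dividing IMV from NRS shared 1 split, in which the 8 on libraries were those of IMV, term replicate 2, fetal start replicates 1 and 3 and fetal end replicates 1 and 2. They had at least 137 counts in each on library and at most 5 in each off library.

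The rule was also applied to 13 libraries at a time, and the left-out library, which had no part in that choice, was placed. Over the 14 libraries, 790 placements were made, with 43 to 61 genes each. The left-out value lay at or above the upper edge of the gap in 220 placements, at or below the lower edge in 460 and inside the gap in 110 (13.9%). The share inside ran from 5.26% (fetal end replicate 3) to 21.3% (NRS replicate 2). Where the gap had 4 or more libraries above it and below it, 18 of 139 placements were inside. The placements share genes and libraries and are not independent of each other.

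Group comparisons were fitted over all genes to see where the 57 genes came out. The low-count filter kept 48 of them among 17069 genes tested, and the 9 that it removed were all on in 1 library only. Their median spread was large, with a biological coefficient of variation of 108% against 19.3% over all genes tested, as the rule selects for spread inside groups. A gene could pass the filter through the libraries where it was high, so the counts of the 48 below describe the fits and are not evidence about the 57 genes.

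Between IMV and NRS, the contrast that the rule itself used, 0 of 48 genes were called (adjusted p under 0.05 by edgeR's quasi-likelihood test, Benjamini-Hochberg method), where the background over all genes was 0%. DESeq2 called 0 of the 30 on-off genes to which it gave an adjusted p. An unadjusted edgeR p under 0.05 was found for 5 of the 48, and the share over all genes was not counted. By size alone, 12 of the 48 (25%) differed by 4-fold or more, 11 of them higher with IMV, against 1.42% of all genes tested. The 4 genes of IMV replicate 2 and fetal end replicate 2 and 4 of the 5 genes of IMV replicate 1 were among these 11, each with 1 of 3 IMV libraries on.

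ENSOARG00000008077 had 455, 356 and 530 counts with NRS and was on in 1 of 3 IMV libraries, replicate 2. With all libraries its log2 fold change was -1.65 ± 1.12 (SE), and it did not pass (edgeR adjusted p = 0.610). It was called when IMV replicate 2 was left out, an outcome that is fixed by taking away the only IMV library on the upper side of the gap that chose the gene and is no test of it.

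Against fetal end, 1 of 48 genes was called with IMV, where 0.685% of all genes were, and 0 of 48 with NRS, where 0.428% were. An unadjusted edgeR p under 0.05 was found for 21 of the 48 with IMV, 18 with NRS and 18 at term. The share over all genes was not counted, so these counts cannot be read as an excess. DESeq2 called 7 of the 34 on-off genes to which it gave an adjusted p with NRS. It called 648 genes in all. How many genes in all had an adjusted p was not counted, so the 7 have no background share. Fold changes of 4-fold or more were fitted for 25 of 48 genes with IMV (background 2.02%) and for 22 with NRS (background 2.67%). The 3 fetal end libraries are shared by these comparisons and by the one with term. All 10 tested genes of the fetal end replicate 1 set were among those lower by 4-fold or more in each, and 0 of them were called by edgeR (adjusted p from 0.0669 to 0.146 with IMV and from 0.0943 to 0.314 with NRS). DESeq2 gave 6 of these 10 no adjusted p and called the other 4 in each comparison.

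The gene called with IMV was ENSOARG00000013899, at 35.4 ± 3.61 CPM where fetal end had 2.18 ± 0.448 CPM (SD, n = 3 each). Its fitted log2 fold change was 4.04 with an SE of 0.80, and edgeR's adjusted p was 0.0460. The gap that chose the gene put the IMV and fetal end libraries on opposite sides, so their separation is no test of it. Leaving out any 1 of the 6 libraries ended the call (edgeR adjusted p from 0.0504 to 0.164). The log2 fold change of the gene stayed between 3.90 and 4.20. With NRS it stood at 26.1 ± 21.8 CPM (SD, n = 3) and did not pass, at a log2 fold change of 3.55 with an SE of 0.78 and an edgeR adjusted p of 0.0837. It passed when NRS replicate 2 was left out, which takes away the library that the gap had put with the fetal ones and is likewise no test.

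Between term and fetal end, 3 of 48 genes (6.25%) were called, where 5.88% of all genes were, a share near the background. Fold changes of 4-fold or more were fitted for 28 of 48 genes, against 4.86% of all genes tested. ENSOARG00000008077 was lower at term, with 3 counts in both libraries together where fetal end had 2053. The gap that chose this gene put term and fetal end on opposite sides, so the contrast is no test of it. The CPM ratio was 0.00196, with exact 95% limits for counting error of 0.000405 and 0.00575, and edgeR's adjusted p was 0.0406. ENSOARG00000012328 was higher, at 503 ± 573 CPM (SD, n = 2) where fetal end had 3.19 ± 1.14 CPM (SD, n = 3). The log2 fold change was 7.33 with an SE of 1.90 and an edgeR adjusted p of 0.0442, and it was 4.94 without term replicate 2. Both calls were lost without any 1 of the 5 libraries (edgeR adjusted p from 0.0522 to 0.223 over both genes), while the log2 fold change of ENSOARG00000008077 stayed between -9.38 and -8.45.

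ENSOARG00000019583 was called higher at term although only 1 of the 2 term libraries was on, at 10.5 CPM in replicate 3 and 0.170 CPM in replicate 2. Fetal end libraries had 0.229, 0.261 and 0.564 CPM, all above term replicate 2. Its log2 fold change was 3.91 with an SE of 1.05 (edgeR adjusted p = 0.0494). It turned to -0.999 without term replicate 3 and was 4.89 without term replicate 2. The rise to 4.89 is fixed by keeping only the library that the gap had put on, and is no test of the gene. Without any 1 of the fetal end libraries the gene did not pass.

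**Figure D5:**
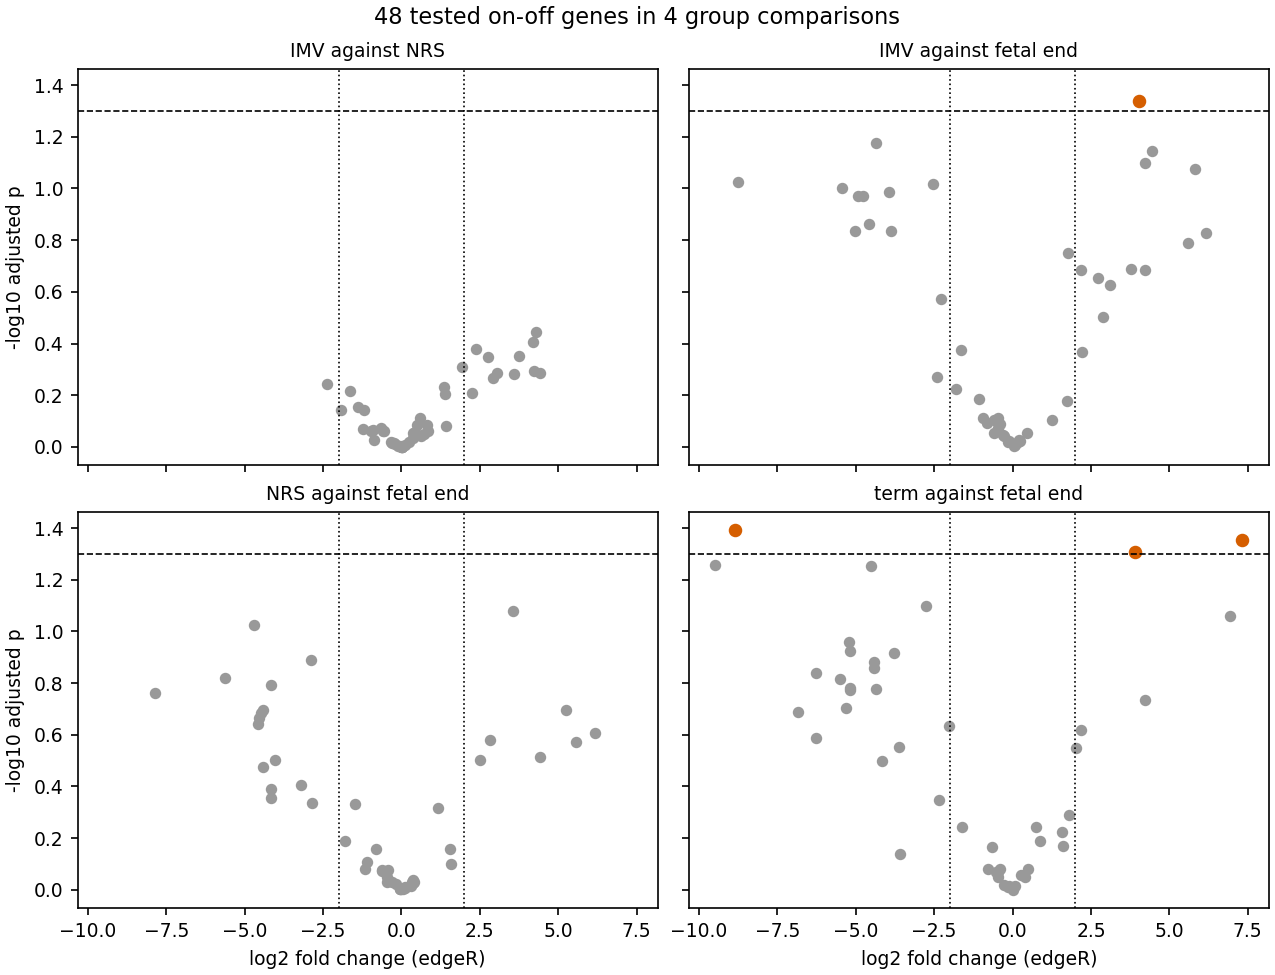
Fitted log2 fold change (x axis) and -log10 of the edgeR adjusted p (y axis) of the 48 tested on-off genes in 4 group comparisons, with a dashed line at an adjusted p of 0.05 and dotted lines at 4-fold. Of the 12 to 28 genes beyond 4-fold in a comparison, 0 to 3 (orange) lie above the dashed line.

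Large fitted fold changes were common among the on-off genes, which the rule had chosen for a wide gap in these same libraries. Their sizes below describe that choice. Of the 50 genes with the largest fitted fold change, 13 were on-off genes for IMV against fetal end, 7 for term against fetal end, 5 for NRS against fetal end and 4 for IMV against NRS. The median size of the log2 fold change over the 48 genes was 0.87, 2.19, 1.56 and 2.57 for IMV against NRS, IMV against fetal end, NRS against fetal end and term against fetal end. Over all genes tested it was 0.19, 0.25, 0.20 and 0.31. When the 57 genes were left out before scaling and fitting, the genes called between IMV and fetal end went from 117 to 160, of which 116 were shared. In the other comparisons the counts were 0 in both fits for IMV against NRS, 73 in both for NRS against fetal end, and 1004 and 1022 for term against fetal end.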

How the data were processed

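Total RNA was made into stranded libraries, per the labels' protocols. What the authors deposited is a table of 27054 Ensembl identifiers with raw, not normalized, counts, whole numbers in all 14 columns. The submitters' processing notes name cutadapt 1.16, STAR 2.7.0f, featureCounts 1.6.3, DESeq2 1.22.2 and the build Oar_v3.1. For the annotation, the strandedness of counting and multi-mapping reads nothing is given in the sources used here, so counts of overlapping, antisense or near-identical genes are uncertain. The reference table carries an Ensembl identifier in 0 of 35057 rows.

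CPM used column totals. Counts were tested with edgeR 4.0.16 in R 4.3.3 (quasi-likelihood F test, TMM scaling, filterByExpr, 14 libraries, 5 group means, 9 residual degrees of freedom). P-values were adjusted by the Benjamini-Hochberg method over the 17069 genes tested. The rule and the fit were tested on simulated data. Alternatives were other gaps, CPM floors and pseudocounts, TMM sizes for the rule, DESeq2 1.42.0, RLE scaling, no filter, a robust fit, a replicate block, the on-off genes left out, and each library left out. Any 2 replicates of a group differed by more than sampling noise (chi-square of their counts, divided by its degrees of freedom, at least 26.55). The genes and lists were chosen with earlier results of these data known. Named were at most 2 genes per split held by at least 3 genes, those with the widest and narrowest gaps and the highest CPM, those in opposite splits, those just outside the rule and those called; others are marked in the text. Marker lists fixed by symbol could not be used.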

Additional observations from a re-analysis of the deposited data

How the results depend on the processing

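The number of on-off genes followed the settings of the rule: 137 genes with a gap over 2, 25 with a gap over 4, and 30 and 22 with a pseudocount of 0.5 and 1 CPM, against 57. It stayed within 1.5 times of 57 with other CPM floors, with TMM sizes (57, of which 56 were shared) and without any 1 library (43 to 61, lowest without fetal end replicate 1). The most common split held 16 genes with the settings used, 31 with a gap over 2 and 5 to 19 without 1 library. Its 5 genes without fetal end replicate 1 are those of another split, since the 16 are on in that library alone.

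Counts of called genes rested on single libraries. Without 1 library, 0 to 2 genes were called for IMV against NRS, 0 to 644 for IMV against fetal end (117 with all libraries), 2 to 44 for NRS against fetal end (73) and 44 to 844 for term against fetal end (1004). Of the on-off genes, 0 to 1, 0 to 6, 0 to 1 and 0 to 3 were called. The 6 for IMV against fetal end were called without fetal end replicate 2. DESeq2 called 1.3e+02 genes for IMV against NRS (81 higher and 50 lower with IMV), and 1527, 648 and 2427 in the other comparisons, of which 0, 8, 7 and 12 were on-off genes, and gave an adjusted p to 30, 33, 34 and 34 of the 57. RLE scaling, no filter and the robust fit kept every count of all genes and of on-off genes within 1.5 times, and the robust fit and no filter lost the call of ENSOARG00000019583 (edgeR adjusted p = 0.0503 and 0.0512). The log2 fold change of this gene moved from 3.91 to 4.89 when term replicate 2 was left out and to -0.999 when term replicate 3 was.

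The labels do not say that a replicate number marks a shared litter or day, and the numbers were not taken as pairs. Same-numbered libraries of different groups correlated from -0.152 to 0.288 in their deviations from the group means. For IMV against fetal end the 3 pairs correlated from 0.0922 to 0.288 and 5 of 6 libraries lay closest to their own number, against 0 of 6 in each of the other comparisons with 3 pairs and 3 of 5 for term against fetal end. With a replicate block 0, 4, 15 and 450 genes were called in the 4 comparisons in the order above, and 0 on-off genes in each. The cause was not tested. Low counts limit the off levels, since 14 genes had at most 3 counts in every off library.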
